A study of Mus musculus with 12 samples.

Results

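The Hox genes of the mouse are 39 homeobox genes in 4 clusters, and 38 of them were followed in RNA of whole colon tissue. They were chosen by name, as the genes of the Hoxa, Hoxb, Hoxc and Hoxd clusters, out of 54532 genes in each library. The choice was made with the levels of these genes in the same libraries already known, so the levels, the differences and the calls given for them are a description. Of the 38 genes, 25 passed the filter on low counts among 17658 genes in all, 13 did not, and 4 (Hoxb1, Hoxc12, Hoxc13 and Hoxd4) had no count in any library. A count of 0 allows up to 3 counts in a library.

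RNA of colon from C57BL/6 mice was sequenced in 12 libraries, 3 in each of 4 groups, and the study asked whether ursolic acid (UA), a plant triterpenoid, prevents or treats colitis caused by dextran sulfate sodium (DSS), which injures the colon epithelium. All mice were male and 6 weeks old on arrival. The DSS, UA+DSS and DSS+UA groups drank 3% DSS for 5 days. UA was given by gavage at 200 mg/kg a day, for 7 days from 1 day before DSS in the UA+DSS group, and for 4 days from 3 days after the start of DSS in the DSS+UA group. These days are those of the methods, and the discussion of the study gives other numbers of days of UA for both groups. The Con group had no DSS, and it is labelled untreated where the methods name gavage of the vehicle for the Con and DSS groups. The labels name the tissue only as colon and do not say which stretch of it was taken, so the group and the stretch sampled cannot be told apart.

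Hox proteins are transcription factors that give cells along the axis of the body their position. Within a cluster the genes lie in the order in which they are used from head to tail, and low paralogue numbers are used in front of high ones. In the gut they remain active after birth, and Hoxb13 and Hoxd13 are known as genes of the distal colon and rectum. Paralogues are the genes of the same number in different clusters, such as Hoxa13, Hoxb13 and Hoxd13.

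The libraries held 15566216 to 19498383 counts, of which 0.033% to 0.1335% fell on the 38 Hox genes. Levels are CPM (counts per 1e+06 counts of the library, whose total was scaled by the trimmed mean of M values or TMM method), and Con 1 stands for replicate 1 of Con. Epithelial markers summed to 6404 to 18386 CPM in every library. Markers of smooth muscle were at 1132 to 3585 CPM in Con, 703 to 1511 in DSS, 1178 to 2519 in UA+DSS and 467 to 907 in DSS+UA, and those of enteric neurons and glia at 17.0 to 66.3 CPM. Fibroblast markers were at 3197 to 6930 CPM in DSS and 609 to 2340 CPM in the other groups. The part of these cells in the Hox levels was not tested. DSS 3 held 13342 CPM of 6 markers of pancreatic acinar cells, where the other libraries held 31.2 to 554 CPM. The 6 markers of small intestine epithelium were at 1037 CPM in DSS 2, 317 CPM in DSS+UA 3, 306 CPM in UA+DSS 2 and 24.9 to 188 CPM elsewhere. Leukocyte markers were at 15175 CPM in DSS 2, 721 to 994 CPM in DSS 1, DSS 3, DSS+UA 1 and DSS+UA 3, 282 CPM in DSS+UA 2 and 46.4 to 188 CPM in Con and UA+DSS.

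The clusters lie on the mouse genome GRCm38 at chr6:52162417-52260880 (Hoxa, 10 genes followed), chr11:96194316-96368256 (Hoxb, 10 genes), chr15:102921103-103036852 (Hoxc, 9 genes) and chr2:74668310-74765142 (Hoxd, 9 genes). Of the genes whose promoters are in the RefSeq table for GRCm38.p6 (22 of the 38), 4 were picked to be printed. Of their 4 group means that of UA+DSS was the lowest (Hoxd13 and Hoxd12) or the highest (Hoxb8 and Hoxd8). This also held for genes that are not printed, such as Hoxd11 (lowest) and Hoxb4 (highest), so the 4 do not stand for all such genes. Each run is the 250 bases before the RefSeq start, which for Hoxd13 lies ahead of the start given for the gene in the next paragraphs, on the plus strand, 5′ to 3′, from chr2:74667975-74668224 for Hoxd13, chr2:74674763-74675012 for Hoxd12, chr2:74704365-74704614 for Hoxd8 and chr11:96281655-96281904 for Hoxb8. Capitals mark the searched motifs.
Hoxd13: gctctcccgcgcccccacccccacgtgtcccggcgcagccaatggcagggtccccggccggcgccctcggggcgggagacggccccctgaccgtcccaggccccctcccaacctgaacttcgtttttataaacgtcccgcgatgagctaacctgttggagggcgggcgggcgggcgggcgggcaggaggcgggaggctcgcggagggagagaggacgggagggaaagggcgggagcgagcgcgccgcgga
Hoxd12: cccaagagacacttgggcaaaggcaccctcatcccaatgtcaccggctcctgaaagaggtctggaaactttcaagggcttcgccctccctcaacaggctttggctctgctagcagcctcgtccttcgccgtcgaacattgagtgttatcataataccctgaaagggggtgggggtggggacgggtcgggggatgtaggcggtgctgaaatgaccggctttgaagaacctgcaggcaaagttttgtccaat
Hoxd8: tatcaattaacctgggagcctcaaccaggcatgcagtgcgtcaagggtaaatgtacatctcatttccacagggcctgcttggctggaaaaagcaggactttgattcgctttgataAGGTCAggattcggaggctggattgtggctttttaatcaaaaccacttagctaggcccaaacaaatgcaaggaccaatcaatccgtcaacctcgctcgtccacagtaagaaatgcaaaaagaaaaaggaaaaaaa
Hoxb8: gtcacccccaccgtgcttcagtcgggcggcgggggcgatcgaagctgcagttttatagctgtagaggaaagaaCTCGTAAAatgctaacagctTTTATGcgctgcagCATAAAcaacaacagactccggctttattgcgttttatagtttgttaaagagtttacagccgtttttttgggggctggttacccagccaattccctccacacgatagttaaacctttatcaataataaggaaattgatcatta
The motifs were TTTATG for Cdx factors, CTCGTAAA for Hox13 factors, TGATTNAT for Pbx-Hox pairs and AGGTCA for retinoic acid receptors, on either strand. The Hoxb8 run held TTTATG at 157 to 152 bases and its reverse complement CATAAA at 143 to 138 bases before the start, and CTCGTAAA at 177 to 170 bases. Among 32851 promoters of the same length, 10.8% held TTTATG or its reverse complement, 0.11% held CTCGTAAA, 14.0% held AGGTCA and 2.82% held TGATTNAT. In the Hoxd8 run AGGTCA lay 135 to 130 bases before the start. None of the 4 motifs was in the Hoxd13 and Hoxd12 windows. Hoxd11, which is not printed, held TTTATG and TGATTNAT or their reverse complements, and Hoxb4 held AGGTCA or its reverse complement. Hoxd13 was 74.4% G and C, Hoxd12 55.6%, and Hoxd8 and Hoxb8 44.4% each, with a median of 52.4% over all promoters.

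The levels of the Hox genes showed 3 patterns. The posterior genes Hoxb13, Hoxd13, Hoxd12 and Hoxd11 had their lowest mean in the UA+DSS group and a high mean in the DSS+UA group. For the Hoxd genes among them Con 2 and Con 3 were also low, and Hoxd9, Hoxd10 and Hoxa11 did not share this pattern. The middle Hoxb genes, Hoxb3 to Hoxb8, with Hoxd8, were highest in the UA+DSS group. Most Hoxa genes were highest in the Con group. In bulk tissue fewer cells of a type and less RNA per cell cannot be told apart.

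**Figure D1:**
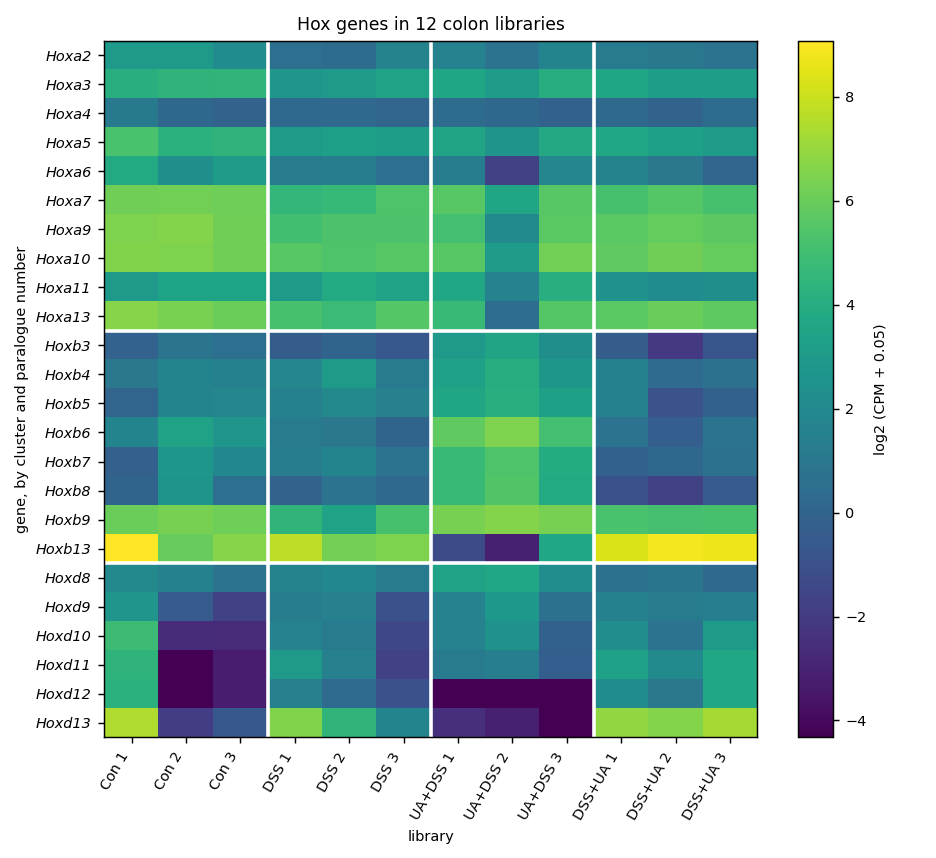
Level of the 24 Hox genes with at least 1 CPM in at least 3 libraries, as log2 of CPM plus 0.05 (colour), in each of the 12 libraries (columns, 4 groups of 3) and ordered by cluster and paralogue number (rows). Hoxb13 is darkest in the UA+DSS columns, although in UA+DSS 3 its 13.2 CPM is above Hoxb3, Hoxb4 and Hoxb5. Hoxd13 is dark in the UA+DSS columns and in Con 2 and Con 3. The rows of Hoxb3 to Hoxb8 are brightest in the UA+DSS columns, except that Hoxb4 in DSS 2 is above UA+DSS 3. Most Hoxa rows are brightest in the Con columns.

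Hoxb13 (ENSMUSG00000049604, chr11:96194316-96197447) is the most posterior gene of the Hoxb cluster. It was measured at 542, 62.8 and 100 CPM in Con 1 to 3, and at 216, 77.4 and 91.3 CPM in DSS 1 to 3. In the UA+DSS group it was at 0.385, 0.0625 and 13.2 CPM, and in the DSS+UA group at 329, 478 and 433 CPM. Every UA+DSS library was below the other 9 libraries, Con and DSS overlapped, and Con 1 alone stood above the whole DSS+UA group. Its fitted log2 fold change was -4.8 ± 1.4 (SE, n = 3 per group) in UA+DSS against DSS and 6.48 ± 1.51 in DSS+UA against UA+DSS.

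Hoxd13 (ENSMUSG00000001819, chr2:74668310-74671599), the paralogue of Hoxb13 at the posterior end of the Hoxd cluster, was at 178, 0.222 and 0.588 CPM in the Con libraries. The DSS libraries held 94.6, 21.5 and 3.22 CPM, the UA+DSS libraries 0.128, 0.0625 and 0 CPM, and the DSS+UA libraries 122, 95.9 and 156 CPM. Con 1 was thus with the DSS+UA group, and Con 2 and Con 3 were close to the UA+DSS group, from which they did not overlap. Since the UA+DSS group had 3 counts in all, the difference is given as a ratio of scaled counts, with an exact 95% interval that covers counting error only. DSS was 692 times as high as UA+DSS (236 to 3356), Con 1038 times (355 to 5036) and DSS+UA 2109 times (721 to 10229). Without Con 1 the ratio of Con was 6.86, and without DSS 1 that of DSS was 212. As UA+DSS 1 held 2 of the 3 counts, the ratios without it were 1433 for DSS, 2151 for Con and 4370 for DSS+UA, and without UA+DSS 3, which held none, they were 434, 651 and 1322.

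Hoxd12 lies next to Hoxd13 and shared this pattern. Its values were 18.8, 0 and 0.0535 CPM in Con, 2.84, 1.25 and 0.475 CPM in DSS, with 4.32, 1.92 and 12.5 CPM in DSS+UA. All 3 UA+DSS libraries had no count of it. Set against the 3 counts that a group without any count allows, Hoxd12 was at least 109-fold higher in Con, 26.2-fold in DSS and 107-fold in DSS+UA. The Con value rests on Con 1, since Con 2 and Con 3 held at most 0.0535 CPM. Without Con 1 no fold can be given, as Con then had 1 count, and without Con 2 or Con 3 it was 161 or 164. Without DSS 1 the bound of DSS was 14.7 and without DSS+UA 3 that of DSS+UA was 54. Leaving out 1 UA+DSS library gave 68.6 to 75.6 for Con, 16.4 to 18.1 for DSS and 66.9 to 73.7 for DSS+UA.

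Hoxd11 and Hoxd10 come next in the cluster. Hoxd11 was at 20.7, 0 and 0.0535 CPM in Con, 7.36, 2.81 and 0.264 CPM in DSS, 2.18, 2.62 and 0.744 CPM in UA+DSS, with 10, 4.08 and 12.5 CPM in DSS+UA. Hoxd10 was at 28.7, 0.111 and 0.107 CPM in Con, 3.08, 2.3 and 0.317 CPM in DSS, 3.02, 5.75 and 0.851 CPM in UA+DSS, with 4.74, 1.67 and 7.98 CPM in DSS+UA. Unlike Hoxd12 and Hoxd13, both had counts in each UA+DSS library, and only Hoxd11 did not overlap between the DSS+UA and UA+DSS groups. Hoxd9 was at 6.31, 0.666 and 0.267 CPM in Con, 2.5, 2.81 and 0.475 CPM in DSS, 3.08, 6.93 and 1.6 CPM in UA+DSS, with 2.9, 2.23 and 2.72 CPM in DSS+UA, and no pair of groups stood apart in it.

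**Figure D2:**
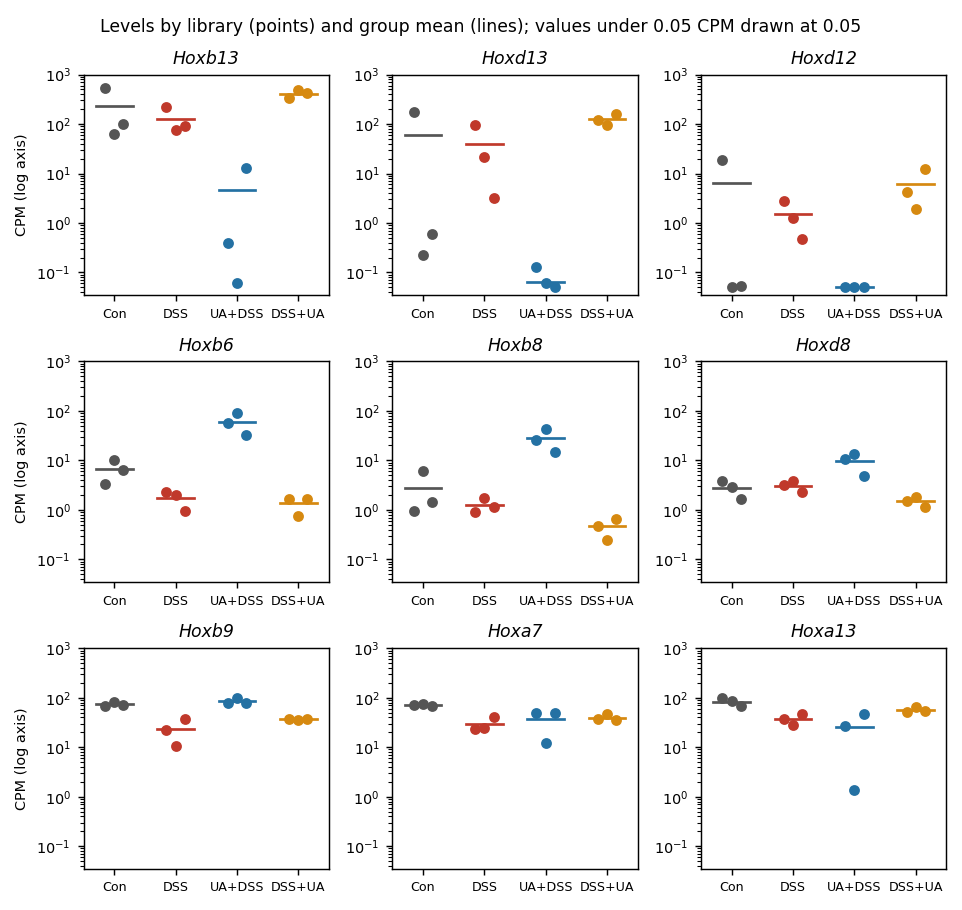
CPM (log axis) of 9 Hox genes in each library (points, 3 per group) with the group mean (line), values under 0.05 CPM being drawn at 0.05. Hoxb13, Hoxd13 and Hoxd12 are lowest in UA+DSS, Hoxb6, Hoxb8 and Hoxd8 are highest there, and for Hoxd13 and Hoxd12 Con 1 lies far above Con 2 and Con 3.

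Within the Hoxb cluster the genes of paralogue numbers 3 to 8, which pattern the trunk in the embryo, ran opposite to Hoxb13. Hoxb6 (ENSMUSG00000000690, chr11:96292476-96301569) was at 56.8, 91.1 and 33.2 CPM in the UA+DSS libraries. It was at 3.26, 10.4 and 6.36 CPM in Con, 2.26, 1.95 and 0.951 CPM in DSS, with 1.69, 0.742 and 1.66 CPM in DSS+UA. The UA+DSS group was above all other libraries, and Con was above both DSS and DSS+UA without overlap. The fitted log2 fold change was 5.12 ± 0.57 in UA+DSS against DSS, 3.18 ± 0.52 in UA+DSS against Con and -5.45 ± 0.59 in DSS+UA against UA+DSS.

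Hoxb8 was at 26.3, 42.9 and 14.8 CPM in UA+DSS, against 0.931, 6.1 and 1.44 CPM in Con. It was at 0.914, 1.7 and 1.16 CPM in DSS, with 0.474, 0.247 and 0.665 CPM in DSS+UA. Hoxb8 was the gene for which UA+DSS lay above, and DSS+UA below, all other libraries. Hoxb7 held 26, 42.2 and 15.4 CPM in UA+DSS, 0.828, 6.55 and 3.8 CPM in Con, 2.55, 3.21 and 1.69 CPM in DSS, with 0.843, 1.05 and 1.55 CPM in DSS+UA.

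Hoxb5 was at 12.1, 17.6 and 9.94 CPM in UA+DSS, 0.983, 3.27 and 3.58 CPM in Con, 2.93, 3.86 and 2.85 CPM in DSS, with 2.95, 0.495 and 0.832 CPM in DSS+UA. Hoxb3 was at 7.57, 11.4 and 5.1 CPM in UA+DSS, 0.879, 1.72 and 1.44 CPM in Con, 0.722, 0.952 and 0.581 CPM in DSS, with 0.737, 0.186 and 0.554 CPM in DSS+UA, but 52.9% of its exon bases are shared with the antisense gene Hoxb3os, so its counts are uncertain. Hoxb4 was at 10, 16.4 and 6.81 CPM in UA+DSS, 1.97, 3.27 and 2.89 CPM in Con, 3.7, 7.76 and 2.32 CPM in DSS, with 2.95, 1.24 and 1.61 CPM in DSS+UA, so that DSS 2 reached into the UA+DSS range. In 5 of these 6 genes, Hoxb4 being the exception, the UA+DSS group was above the other 9 libraries. In the UA+DSS group UA+DSS 2 was highest and UA+DSS 3 lowest in each of them, and for Hoxb13 the order was the reverse.

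Hoxd8 was the Hoxd gene with the pattern of the middle Hoxb genes. It was at 10.7, 13.2 and 4.73 CPM in UA+DSS, 3.88, 2.94 and 1.66 CPM in Con, 3.18, 3.81 and 2.27 CPM in DSS, with 1.53, 1.79 and 1.16 CPM in DSS+UA. The UA+DSS libraries were above all others, and DSS was above DSS+UA. Of the 25 Hox genes, 6 were above and 2 below the other 9 libraries in the UA+DSS group, where of all tested genes 1.9% were above and 1.72% below. In DSS+UA 0 were above and 1 below, with 6.07% and 3.53% of all genes, and in DSS 0 were above or below, with 6.71% and 4.68%.

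Hoxb9 (ENSMUSG00000020875, chr11:96271457-96276595) lies between the middle genes and Hoxb13. Like the middle genes it had a higher mean in UA+DSS than in DSS and DSS+UA, but unlike them it was about as high in Con. It was at 67.4, 82 and 70.3 CPM in Con and 79.9, 97.1 and 80.1 CPM in UA+DSS. In DSS it was at 22, 10.5 and 36.8 CPM and in DSS+UA at 37.4, 35.2 and 36.5 CPM. Con and UA+DSS overlapped, and both were above the DSS and DSS+UA groups without overlap, with a log2 fold change of -1.66 ± 0.33 for DSS and -1.01 ± 0.33 for DSS+UA against Con. Summed markers of other cells moved with the same groups. Those of leukocytes summed to 46.4 to 105 CPM in Con and 126 to 188 CPM in UA+DSS, against 890 to 15175 CPM in DSS and 282 to 747 CPM in DSS+UA. Of these markers only S100a8, S100a9 and Cd68 were higher in every DSS and DSS+UA library than in any Con or UA+DSS library. Ptprc, Csf1r and Cd3e overlapped between UA+DSS and DSS+UA, and Cd79a was at 23.8 CPM in Con 1 and 20.5 CPM in DSS 3. The 6 markers of squamous epithelium summed to 9.71 to 46.4 CPM in the DSS and DSS+UA libraries, against 1.0 to 2.69 CPM in the rest. Krt13 and Krt14 carried that sum, whereas Krt4, Krt5, Krt6a and Lor overlapped between these pairs of groups, and Krt6a was at 0 in every Con and UA+DSS library and in DSS 1. Their part in the levels of Hoxb9 was not tested.

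As the counts of the genes within 1 library can be set against each other without scaling, the ratio of Hoxb13 to Hoxb6 counts was taken. It was 166, 6.06 and 15.7 in Con, 95.6, 39.6 and 96.1 in DSS, 0.00678, 0.000686 and 0.397 in UA+DSS and 195, 644 and 260 in DSS+UA. The UA+DSS libraries were the only ones with more counts of Hoxb6 than of Hoxb13. The ratio of Hoxd13 to Hoxd8 was 46, 0.0755 and 0.355 in Con, 29.8, 5.64 and 1.42 in DSS, 0.012, 0.00472 and 0 in UA+DSS and 79.9, 53.5 and 134 in DSS+UA. Con 2 and Con 3 thus had more Hoxd8 than Hoxd13 counts, as the UA+DSS libraries had, and Con 1 had more Hoxd13 counts. The ratio of Hoxa13 to Hoxa7, within the Hoxa cluster, varied less, from 0.113 in UA+DSS 2 and 0.538 in UA+DSS 1 to 1.58 in DSS 1.

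The Hoxa genes formed the third pattern. Hoxa7, a trunk gene, was at 71.8, 75.8 and 68.5 CPM in Con, 23.1, 24.9 and 41.3 CPM in DSS, 49.2, 12.2 and 48.3 CPM in UA+DSS, with 36.5, 47.2 and 35.6 CPM in DSS+UA. Hoxa9 was at 90, 95.3 and 73.2 CPM in Con, 32.8, 40 and 41.1 CPM in DSS, 33.8, 4.12 and 49.4 CPM in UA+DSS, with 49.5, 60 and 52.5 CPM in DSS+UA. Hoxa13, the most posterior Hoxa gene (ENSMUSG00000038203, chr6:52257694-52260880), was at 99.7, 84 and 67.5 CPM in Con, 36.6, 27.8 and 47.2 CPM in DSS, 26.5, 1.37 and 47.3 CPM in UA+DSS, with 50.9, 65.6 and 53.1 CPM in DSS+UA. All 3 genes were higher in every Con library than in any of the 9 libraries of mice given DSS, and UA+DSS 2 was the lowest library for each. Of the exon bases of Hoxa7, 20.4% are shared with the antisense gene Hoxaas3.

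Hoxa2, Hoxa3, Hoxa5 and Hoxa6 also had every Con library above the other 9. Hoxa5, which is needed for the lung and the gut of the embryo, was at 38.2, 18.5 and 20.7 CPM in Con, 7.84, 9.37 and 8.72 CPM in DSS, 11.3, 6.06 and 13.7 CPM in UA+DSS, with 13.3, 9.53 and 7.76 CPM in DSS+UA. Hoxa3 was at 16.8, 21 and 21.9 CPM in Con, 6.4, 7.46 and 10.4 CPM in DSS, 11.7, 8 and 16.2 CPM in UA+DSS, with 11.6, 9.03 and 9.2 CPM in DSS+UA, and 27.1% of its exon bases are shared with other genes. For both, the 3 groups given DSS overlapped with each other. Hoxa2, a gene of the hindbrain in the embryo, was at 7.19, 7.38 and 4.55 CPM in Con, 1.44, 1.3 and 3.17 CPM in DSS, 3.08, 1.69 and 3.3 CPM in UA+DSS, with 2.37, 1.98 and 1.66 CPM in DSS+UA. Hoxa6 was at 14.5, 5.05 and 8.29 CPM in Con, 2.21, 2.4 and 1.43 CPM in DSS, 2.44, 0.25 and 3.62 CPM in UA+DSS, with 3.11, 1.92 and 0.998 CPM in DSS+UA.

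Hoxa10 was at 94, 89.1 and 72.9 CPM in Con, 47.8, 41.5 and 49.3 CPM in DSS, 48.7, 8.5 and 74.5 CPM in UA+DSS, with 56.9, 72.2 and 60.8 CPM in DSS+UA, and UA+DSS 3 reached into the Con range. Hoxa4 was at 2.12, 1.11 and 0.909 CPM in Con, 1.15, 1.15 and 1 CPM in DSS, 1.28, 1.06 and 0.851 CPM in UA+DSS, with 1.16, 0.928 and 1.28 CPM in DSS+UA. Hoxa11 was at 7.29, 11.1 and 10.8 CPM in Con, 7.94, 14.6 and 10.7 CPM in DSS, 12.7, 3 and 16.9 CPM in UA+DSS, with 5.95, 4.58 and 5.1 CPM in DSS+UA, and 35.0% of its exon bases are shared with the antisense gene Hoxa11os. These 3 genes did not set Con apart. In all, 7 of the 25 Hox genes had Con above the other 9 libraries and 0 had it below, against 3.86% and 2.93% of all tested genes.

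UA+DSS 2 stood apart within its group in the Hoxa cluster. It held 0.25 CPM of Hoxa6, 12.2 of Hoxa7, 4.12 of Hoxa9, 8.5 of Hoxa10, 3 of Hoxa11 and 1.37 of Hoxa13, all below UA+DSS 1 and UA+DSS 3. In the same library Hoxb3 to Hoxb9 and Hoxd8 to Hoxd11 were the highest of the group. The Hoxa cluster took 11.6% of the Hox counts there and 45.5% and 59.3% in UA+DSS 1 and 3. Between UA+DSS 2 and UA+DSS 3, 18 of the 25 Hox genes differed by more than 1 on the log2 scale, against 10.7% of all tested genes. Fibroblast markers were at 609 CPM in UA+DSS 2, against 1598 and 1636 CPM in UA+DSS 1 and 3, and smooth muscle markers at 1178 CPM, against 2353 and 2519 CPM. Those of small intestine epithelium were at 306 CPM, against 124 and 140 CPM, and the 306 CPM held 267 of Apob and 32.4 of Sis, with Lct, Apoa4 and Fabp1 at 0.5 CPM or less. Their part in the difference was not tested.

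The Hoxc cluster and the front of the Hoxd cluster were nearly silent. No Hoxc gene passed the filter or reached 1 CPM in any library, with a highest value of 0.902 CPM for Hoxc4 in DSS 2. The Hoxc genes together made up 0.241% to 0.784% of the Hox counts in UA+DSS, 0.126% to 0.603% in DSS and at most 0.042% in Con and DSS+UA. Hoxd1 and Hoxd3 were at most at 0.312 and 0.437 CPM, both in UA+DSS 2, and Hoxd3 and Hoxd4 share 62.8% and 52.3% of their exon bases with other genes. Hoxb2, at the front of the Hoxb cluster, lay between 0.0517 and 1.15 CPM.

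Per kilobase of exon, which lets genes be compared, Hoxb13 had the highest mean level in the Con, DSS and DSS+UA groups, at 107, 58.2 and 187 CPM per kb. In Con it was followed by Hoxa13, Hoxb9, Hoxa10, Hoxa7 and Hoxd13 at 33.9, 28.4, 26.1, 25 and 24.1 CPM per kb, and the ranges over libraries of neighbours in this order overlapped. The places of Hoxb13 and Hoxd13 there rest on Con 1, since Hoxb13 was at 246, 28.5 and 45.4 and Hoxd13 at 71.8, 0.0894 and 0.237 CPM per kb, and in Con 2 Hoxa13 and Hoxb9 were above Hoxb13, at 34 and 31.8 CPM per kb. In UA+DSS Hoxb9 (33.3) and Hoxb6 (30.7 CPM per kb) led with overlapping ranges, followed by Hoxb7 at 18, and Hoxb13 was at 2.06 CPM per kb. In DSS+UA Hoxd13 was second at 50.2 CPM per kb, with 38.6 to 62.7 over its libraries and 149 to 217 for Hoxb13.

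The comparisons used the quasi-likelihood test of edgeR in 1 fit of the 12 libraries, and a gene is called at an adjusted p under 0.05 over all tested genes. In DSS against Con 0 Hox genes were called higher and 7 lower (Hoxa2, Hoxa3, Hoxa5, Hoxa6, Hoxa7, Hoxb6 and Hoxb9). Of all genes 26.5% were called in this comparison, 13.9% higher and 12.6% lower. The median log2 fold change of the 25 Hox genes was -0.99, with -0.03 over all genes, and -1.23 in the Hoxa cluster. The groups did not overlap for 10 Hox genes, all lower in DSS, and for 41.3% of all genes, 21.2% higher and 20.1% lower. Without Con 2 the number called was 4, and without DSS 2, DSS 3 and DSS+UA 3, in which pancreatic acinar or small intestine markers summed highest, it was 1 (Hoxb9, -1.72), where of all genes 15.8% and 5.23% were called. Some settings called Hox genes higher, namely Hoxd11, Hoxd12 and Hoxd13 without Con 1, Hoxb2 and Hoxc4 without Con 3, and Hoxc4 alone without DSS 1, without DSS+UA 1 and by DESeq2. Without Con 1 the log2 fold change of Hoxd13 was 6.58. The fit without DSS 2, DSS 3 and DSS+UA 3 was chosen after the marker values were seen. It leaves DSS 1 alone in its group, which is assumed to vary like the other groups.

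In UA+DSS against Con edgeR called 0 Hox genes, limma-voom 0 and DESeq2 11, of which 7 were higher (Hoxb3 to Hoxb8 and Hoxd8) and 4 lower (Hoxa5, Hoxb13, Hoxd12 and Hoxd13). Of all genes edgeR called 0.00566%, 0.00566% higher and 0.0% lower, and DESeq2 1.16%. At an unadjusted p under 0.05 there were 17 Hox genes by edgeR, and 12.1% of all genes. For 7 Hox genes every UA+DSS library was higher than every Con library, and for 9 every one was lower, against 9.62% and 11.0% of all genes, or 20.6% in either direction.

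In DSS+UA against Con 5 Hox genes were called, all lower (Hoxa2, Hoxa3, Hoxa5, Hoxb6 and Hoxb8), with 18.1% of all genes called, 9.13% higher and 8.95% lower. With library size alone as the scaling factor, the share of all calls that were higher moved from 50.5% to 39.9%. The groups did not overlap for 13 Hox genes, each lower in DSS+UA, among them 9 of the 10 Hoxa genes, where 19.2% of all genes were lower and 19.8% higher without overlap, 38.9% in all. The calls depended on single libraries. Without Con 1 there were 9, since Hoxd10, Hoxd11, Hoxd12 and Hoxd13 were then called higher (log2 fold changes 5.38, 8.03, 7.52 and 8.23), without Con 2 there was 1, without UA+DSS 2 there were 8, without DSS+UA 1 there were 3, and without DSS+UA 2 or DSS+UA 3 there were 0. Without DSS 2, DSS 3 and DSS+UA 3 there was 1 (Hoxb9, -0.99), and DESeq2 called 9. In the order given, the share of all genes called was 17.8%, 10.3%, 15.2%, 9.91%, 11.7%, 5.81%, 6.05% and 14.0%.

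**Figure D3:**
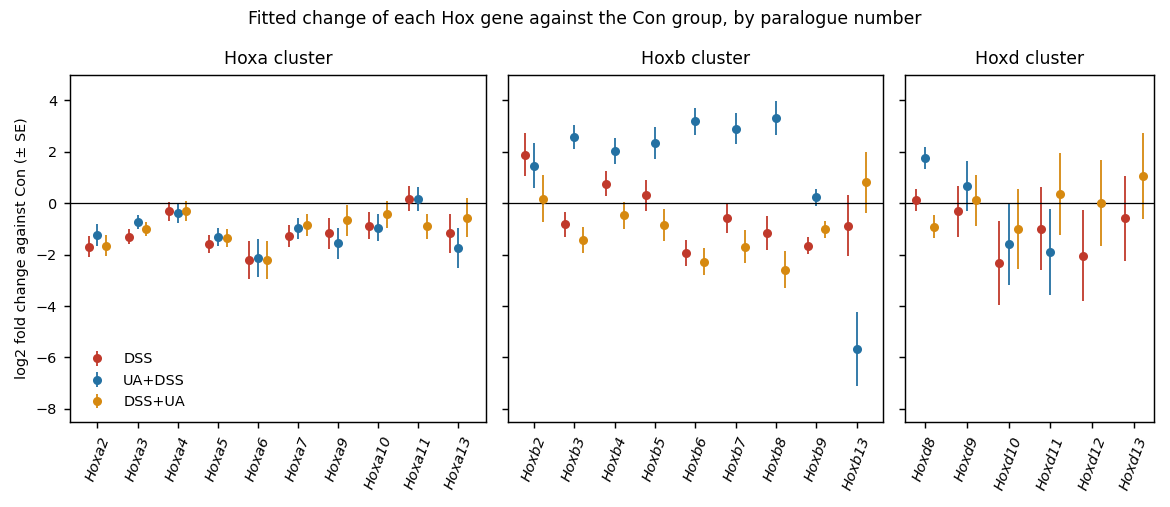
Fitted log2 fold change against Con (y axis, ± SE) of the tested Hox genes of the Hoxa, Hoxb and Hoxd clusters in paralogue order (x axis), for DSS, UA+DSS and DSS+UA. Hoxd12 and Hoxd13 in UA+DSS, with at most 3 counts, are left out. UA+DSS is at 2.03 to 3.31 for Hoxb3 to Hoxb8 and at -5.67 for Hoxb13, while for most Hoxa genes all 3 groups are below 0.

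In UA+DSS against DSS, the comparison for prevention, 7 Hox genes were called higher (Hoxb3, Hoxb5 to Hoxb9 and Hoxd8) and 2 lower (Hoxb13 and Hoxd13), with 18.7% of all genes called, 8.21% higher and 10.5% lower. Of the Hoxa genes 0 were called and 0 stood apart without overlap, and their median log2 fold change was 0.02. Over all clusters 7 Hox genes were higher and 3 lower without overlap, with 21.1% and 21.7% of all genes, 42.8% together. Without UA+DSS 2 the calls were 3 (Hoxb3, Hoxb6 and Hoxb8), without UA+DSS 1 or without DSS 1 they were 5, and without DSS 2, DSS 3 and DSS+UA 3 there was 1 (Hoxb9, 1.95). The share of all genes called was then 1.0%, 10.6%, 9.45% and 0.914%. Hoxb13 and Hoxd13 were both no longer called without DSS 1, DSS 2, UA+DSS 1, UA+DSS 2 or any 1 DSS+UA library, and with no filter on low counts. The direction of each called gene was the same in all of these.

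In DSS+UA against DSS, the comparison for treatment, 0 Hox genes were called by edgeR, DESeq2 and limma-voom, and edgeR called 7.54% of all genes, 2.54% higher and 5.0% lower. At an unadjusted p under 0.05 there were 3 Hox genes by edgeR, and 29.9% of all genes. Of the adjusted calls over all genes 33.7% were higher, and 12.2% when library size alone was the scaling factor, which moved the median of all genes from 0.0198 to -0.1136. Hoxb13 had a log2 fold change of 1.69 ± 1.21 and Hoxd13 of 1.65 ± 1.68, and the groups did not overlap in either. In all 5 Hox genes were higher and 4 lower without overlap, with 18.3% and 16.4% of all genes, 34.7% together. Without DSS 3 Hoxb9 was called (1.18), and without DSS+UA 1 Hoxb5 (-2.24).

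Between the 2 groups given UA, DSS+UA against UA+DSS, 2 Hox genes were called higher in DSS+UA (Hoxb13 and Hoxd13) and 8 lower (Hoxb3 to Hoxb9 and Hoxd8), with 16.8% of all genes called, 9.23% higher and 7.54% lower. Without overlap 6 Hox genes were higher and 9 lower, with 22.5% and 22.7% of all genes, 45.3% together. The tested Hoxb genes other than Hoxb13 were lower without overlap in 8 of 8 cases. For Hoxb2 this rests on few counts, 7, 3 and 3 in DSS+UA and 7, 15 and 8 in UA+DSS, so that it depends on the scaling of the libraries. Without UA+DSS 2 there were 6 calls and without DSS+UA 3 there were 5. The share of all genes called was then 3.07% and 5.1%. No Hox gene was called higher in these fits or without UA+DSS 1. Without DSS 2, DSS 3 and DSS+UA 3 there were 7, with 4.11% of all genes, all lower in DSS+UA (Hoxb3, Hoxb4, Hoxb6 to Hoxb9 and Hoxd8), and Hoxb13 and Hoxd13 were not called. These groups differed in when UA began and for how many days it was given, which cannot be told apart here.

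The spread within the Con group was wide for the same genes. Between Con 1 and Con 2, 12 of the 25 Hox genes differed by more than 1 on the log2 scale, between Con 1 and Con 3 11, and between Con 2 and Con 3 4, against 21.3%, 21.7% and 10.6% of all genes. For Hoxd13 the difference of Con 1 from Con 2 was 9.07 and for Hoxb13 3.11, while for Hoxb7 it was -2.83 and for Hoxb8 -2.58. The sign of the difference of Con 1 from Con 2 was that of DSS+UA minus UA+DSS for 21 of the 25 genes, and with Con 3 in place of Con 2 for 22, where no library is shared. For Con 2 minus Con 3 it was 9. Neighbouring Hox genes share regulation and are not independent, so these counts are a description.

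**Figure D4:**
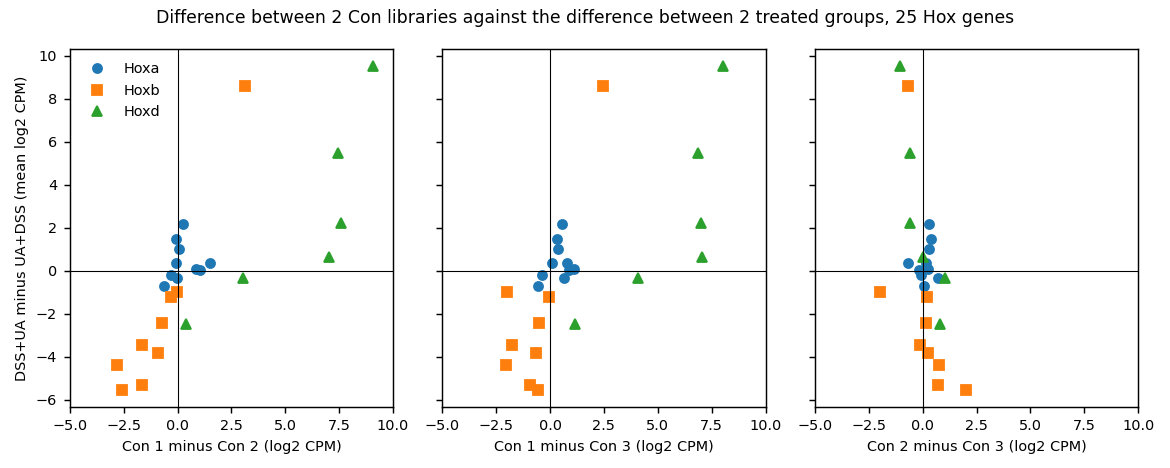
Difference in log2 CPM between a pair of Con libraries (x axis, 1 panel per pair) and mean difference of DSS+UA from UA+DSS (y axis) for the 25 tested Hox genes, with a symbol for each cluster. With Con 1 in the pair, 21 and 22 genes lie in the quadrants of equal sign, and 9 do for Con 2 minus Con 3.

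Other genes inside the Hox clusters, or within 50 kb of them, numbered 63, of which 20 were annotated as misc_RNA, 10 as antisense and 8 as lincRNA, and 23 were tested. Hottip, a long noncoding RNA at the posterior end of the Hoxa cluster, was at 41.4, 36.9 and 30.9 CPM in Con, 7.07, 2.35 and 12.4 CPM in DSS, 1.41, 0 and 10.3 CPM in UA+DSS, with 8.58, 11.5 and 9.92 CPM in DSS+UA. Hoxa11os, antisense to Hoxa11, was at 158, 82.1 and 75.1 CPM in Con and 1.94 to 39.3 CPM in the other 9 libraries. Con was above all other libraries for 9 of the 23 genes, with 3.86% of all genes. The share of all counts on long noncoding genes was 0.606% to 1.07% in Con and 0.444% to 0.674% in the others, and the mitochondrial share was 4.46% to 9.53% in Con, 1.23% to 2.93% in DSS, 4.21% to 5.58% in UA+DSS and 2.48% to 3.03% in DSS+UA. The part of these shares in the Con values was not tested.

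In DSS against Con 11 of the 23 genes were called, all lower, where 26.5% of all genes were called, 12.6% lower. Among the 11 were Hoxa11os (log2 fold change -2.5 ± 0.72, edgeR adjusted p = 0.0291) and the lincRNA Gm53 of the Hoxb cluster (-1.95 ± 0.3, edgeR adjusted p = 0.00275). Gm53 was at 133, 96.1 and 86.1 CPM in Con, 24.6, 16.7 and 40.1 CPM in DSS, 60.1, 97.7 and 80.8 CPM in UA+DSS, with 39.7, 41.3 and 39.6 CPM in DSS+UA. As for Hoxb9, Con and UA+DSS overlapped and were above the other groups. Reads on Mir196a-1, a miRNA gene next to Hoxb9, followed Gm53 at 9.73 to 14.5 CPM in Con and 1.35 to 2.96 CPM in DSS, although these libraries were not made for short RNAs. In DSS+UA against Con 9 were called lower, and in UA+DSS against Con 0 by edgeR. Of all genes 18.1% were called in DSS+UA against Con, 8.95% lower, and 0.00566% in UA+DSS against Con. Antisense and sense reads could not be told apart where the genes overlap, since the use of strand is not stated.

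Evx2, a homeobox gene beside Hoxd13, followed the posterior Hoxd genes. It was at 11.9, 0 and 0.0535 CPM in Con, 4.71, 0.952 and 0.475 CPM in DSS, with 6.06, 3.22 and 6.76 CPM in DSS+UA, and all 3 UA+DSS libraries had no count. It was called in 0 of the 6 comparisons by edgeR, with an adjusted p of 0.071 in DSS+UA against UA+DSS. Hoxb5os, antisense to Hoxb5, was at 7.44, 11.6 and 4.15 CPM in UA+DSS and 0.277 to 2.25 CPM elsewhere. It was called higher in UA+DSS against DSS (2.12 ± 0.53, edgeR adjusted p = 0.0215), as was Gm53 (1.55 ± 0.3, edgeR adjusted p = 0.0115).

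**Figure D5:**
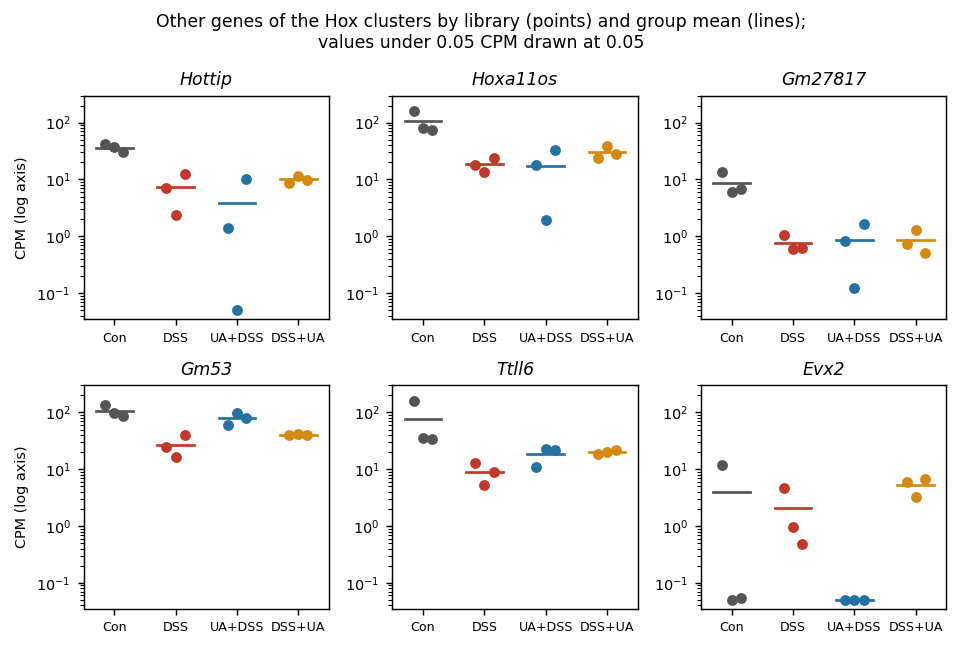
CPM (log axis) of 6 other genes of the Hox clusters in each library (points, 3 per group) with the group mean (line), values under 0.05 CPM being drawn at 0.05. The Con libraries are highest for Hottip, Hoxa11os, Gm27817 and Ttll6, Gm53 overlaps between Con and UA+DSS, and Evx2 has no count in UA+DSS.

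Genes that act with or upstream of Hox genes were taken from 5 lists, of whose 63 genes 56 were tested. In the order of the comparisons above, edgeR called 11 of them in DSS against Con (8 higher, 3 lower), 0 in UA+DSS against Con, 14 in DSS+UA against Con (6 and 8), 9 in UA+DSS against DSS (2 and 7), 10 in DSS+UA against DSS (1 and 9) and 12 in DSS+UA against UA+DSS (4 and 8). As shares of the tested genes these were 19.6%, 0%, 25%, 16.1%, 17.9% and 21.4%, where the shares of all genes called were 26.5%, 0.00566%, 18.1%, 18.7%, 7.54% and 16.8%. For UA+DSS against Con 9 genes were at an unadjusted p under 0.05, and DESeq2 called 1 and limma-voom 0. The counts depended on single libraries. In DSS against Con there were 6 without Con 2 or DSS 1 and 7 without DSS 2, and in DSS+UA against Con 8 without Con 2 or DSS+UA 1, 5 without Con 3 and 4 without DSS+UA 3. In the same order, 15.8%, 16.9% and 19.2% of all genes were called, and 10.3%, 9.91%, 8.58% and 5.81%. For UA+DSS and DSS there were 14 without Con 1, 5 without DSS 1, DSS 2 or UA+DSS 1, 1 without UA+DSS 2 and 4 without UA+DSS 3. For DSS+UA and DSS there were 3 without DSS 2, 5 without any 1 UA+DSS library and 0 without DSS+UA 2 or DSS+UA 3. All genes were called at 2.19% without DSS 2, and at 3.4%, 3.72% and 3.17% without UA+DSS 1, 2 and 3. Without DSS+UA 2 and DSS+UA 3 the shares were 0.775% and 0.137%. For DSS+UA and UA+DSS there were 19 without Con 1, 4, 2 and 7 without UA+DSS 1, 2 and 3, 6 without DSS+UA 1 and 3 without DSS+UA 3. The shares of all genes called were 21.5%, 7.9%, 3.07%, 9.04%, 9.31% and 5.1% in that order.

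Among TALE cofactors, which bind DNA with Hox proteins, 8 genes were tested and 0 were called in DSS against Con, where 26.5% of all genes were. Meis2 was at 16.3, 15.6 and 17.5 CPM in DSS, 5.74, 5.27 and 13.3 CPM in Con, 7.51, 9.18 and 8.67 CPM in UA+DSS, with 7.27, 3.53 and 5.1 CPM in DSS+UA. The DSS libraries were above all others, and Meis2 fell in DSS+UA against DSS (-1.63 ± 0.36, edgeR adjusted p = 0.0302) and did not pass the test in DSS against Con (1.03 ± 0.36, edgeR adjusted p = 0.0544).

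Of the caudal genes, which act upstream of Hox genes in the embryo and keep the gut epithelium in its fate, Cdx2 was at 47.3, 455 and 274 CPM in Con and 56.3, 57.9 and 160 CPM in DSS. It was at 321, 321 and 318 CPM in UA+DSS, with 67, 108 and 47.9 CPM in DSS+UA. Con 1 was again near the DSS+UA group and Con 2 and Con 3 were nearer to UA+DSS, and Cdx2 passed the test in 0 of the comparisons (edgeR adjusted p = 0.0596 for DSS+UA against UA+DSS). Cdx1 was lower in DSS than in Con (-0.74 ± 0.25, edgeR adjusted p = 0.0491) and higher in DSS+UA than in DSS (1.12 ± 0.25, edgeR adjusted p = 0.0304).

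Retinoic acid, made from vitamin A, switches on Hox genes of low number in the embryo. Of the 15 tested genes of its pathway, 4 rose in DSS against Con and 0 fell, or 26.7% called, where 26.5% of all genes were called. In DSS+UA against Con, UA+DSS against DSS and DSS+UA against UA+DSS 40.0% were called each, where 18.1%, 18.7% and 16.8% of all genes were. In DSS+UA against DSS 33.3% were called, beside 7.54% of all genes, and in UA+DSS against Con 0. Aldh1a3, an enzyme of the last step, rose from 5.21 to 6.31 CPM in Con to 48.7 to 166 CPM in DSS (4.08 ± 0.49, edgeR adjusted p = 0.00133), and Rdh10, an enzyme of the first step, by 1.62 ± 0.17 (edgeR adjusted p = 0.000868). Aldh1a1, another enzyme of the last step, was at 403, 534 and 323 CPM in UA+DSS, 36.5, 286 and 145 CPM in Con, 27.7, 61.8 and 68.9 CPM in DSS, with 22.1, 28.6 and 34.3 CPM in DSS+UA. It rose in UA+DSS against DSS (2.99 ± 0.63, edgeR adjusted p = 0.0146) and fell in DSS+UA against Con (-2.46 ± 0.61, edgeR adjusted p = 0.0232), and the UA+DSS libraries were above all others.

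The Polycomb group, which keeps Hox genes silent, had 19 tested genes, of which 3 rose and 2 fell in DSS against Con, or 26.3% called beside 26.5% of all genes. Pcgf2 fell in DSS against Con (-1.19 ± 0.2, edgeR adjusted p = 0.00347) and in DSS+UA against Con (-1.08 ± 0.2, edgeR adjusted p = 0.00785), from 23.3 to 34.5 CPM in Con to 10.2 to 13.5 CPM in DSS and 11.8 to 13.8 CPM in DSS+UA. Ezh2, the enzyme that sets its histone mark, was at 27 to 45.2 CPM in all libraries and was called in 0 comparisons. Of the 9 Trithorax group and demethylase genes, which act against Polycomb, 1 was called in DSS against Con (Wdr5, 0.44 ± 0.13, edgeR adjusted p = 0.0355). In DSS+UA against Con 3 were called (Ash2l and Wdr5 higher, Kmt2a lower), in DSS+UA against UA+DSS 3 (Ash2l, Men1 and Wdr5 higher) and in DSS+UA against DSS 1 (Kdm6b lower). These were 11.1%, 33.3%, 33.3% and 11.1% of the list, where 26.5%, 18.1%, 16.8% and 7.54% of all genes were called. In the other comparisons 0 were called.

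The genes whose levels ran most like those of Hoxb13 over the 12 libraries, by Pearson r of log2 CPM among tested genes outside the list, were Thbs4 (0.981), St6galnac4 (0.96), Gm42528 (0.958), Insl5 (0.953), Gm27605 (0.952), Pthlh (0.945), Lmna (0.944), Tgm3 (0.941), Gm27898 (0.938) and Cd81 (0.935). Insl5, a hormone of enteroendocrine cells of the colon, was at 156, 96.8 and 81.7 CPM in Con, 187, 40.5 and 49.4 CPM in DSS, 9.49, 1.5 and 20.7 CPM in UA+DSS, with 104, 113 and 125 CPM in DSS+UA. The UA+DSS libraries were below all others for it, as for Hoxb13. Tgm3, a transglutaminase, ranged from 0.562 to 10.2 CPM in UA+DSS and from 12.9 to 515 CPM elsewhere. Gm27605 and Gm27898 are noncoding genes within 5 kb downstream of Hoxb13.

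Most like Hoxb6 were Ugt2b38 (0.961), Gm43189 (0.954), Gm2061 and Gm47233 (0.948 each), Gm45871 (0.945), Irx4 (0.939), Ugt2b36 (0.937), and Slc17a2, 1700057G04Rik and Mfap3l (0.924 each). Mfap3l was at 55.8, 102 and 33.3 CPM in UA+DSS, 11.5, 34.9 and 31 CPM in Con, 11.9, 8.82 and 12.9 CPM in DSS, with 6.69, 4.27 and 4.6 CPM in DSS+UA, and Ugt2b36, a glucuronidation enzyme, at 2.39 to 5.5 CPM in UA+DSS and 0 to 2.27 CPM elsewhere. Most of these genes were under 10 CPM, and the 12 libraries share depth and groups, so that r is a description of these libraries. With Spearman rho in place of r, 2 of the 10 genes were kept for Hoxb13 and 2 for Hoxb6.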

How the data were processed

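The deposited files hold whole-number read counts per Ensembl gene for 12 libraries, which the authors made from reads mapped to GRCm38. The processing notes name FastQC, HISAT2 and Cuffdiff, without versions. The annotation release and any use of strand were not given in the sources used here. Groups were taken from the titles, and ages, doses and days from the methods of the study. Genes were named and placed by GENCODE annotation of GRCm38, which named 54409 of 54532 genes.

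Hox genes were taken by symbol, and 1 Hox gene is not reported here. The genes and lists were chosen with earlier results of these data known. Levels in every library are given for genes with at least 1 CPM in at least 3 libraries, the pathway genes named are called ones or show what did not pass, and the 10 genes most like Hoxb13 and Hoxb6 were ranked on log2 CPM (prior count 2).

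The filterByExpr function of edgeR 4.0.16 (R 4.3.3) kept 17658 genes with 99.8% of the counts. TMM factors were 0.871 to 1.09. A robust quasi-likelihood model was fitted to the 12 libraries (biological coefficient of variation 0.352) and tested on simulated data. P-values were adjusted by the Benjamini-Hochberg method across these genes. Alternatives were DESeq2 1.42.0, limma-voom (limma 3.58.1), other scaling and filters, fits restricted to 2 groups, a block for the replicate number, and leaving out each library. Nothing states that the mice of a group came from separate cages or litters, and p-values measure the spread between these libraries.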

Additional observations from a re-analysis of the deposited data

How the results depend on the processing

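The main fit gave 150 log2 fold changes of Hox genes. Of the called ones 0 changed direction under any alternative. Those not called could, as Hoxd13 in DSS relative to Con, which was at -0.59 ± 1.65 in the main fit and was called higher without Con 1. Over all alternatives 61 refitted values moved from the main value by at least the spread between libraries of a group, and 3016 did not. Leaving out 1 library at a time gave 4 to 10 Hox genes called in DSS relative to Con, 0 to 0 in UA+DSS relative to Con, 0 to 9 in DSS+UA relative to Con, 3 to 10 in UA+DSS relative to DSS, 0 to 1 in DSS+UA relative to DSS and 5 to 11 in DSS+UA relative to UA+DSS. For the cofactor and regulator genes the ranges were 6 to 12, 0 to 0, 4 to 14, 1 to 14, 0 to 10 and 2 to 19. Over the same fits the share of all genes called was 15.8% to 25.7%, 0.0% to 0.0219% and 5.81% to 22.4% in the first 3 comparisons. In the last 3 it was 1.0% to 22.7%, 0.137% to 10.1% and 3.07% to 21.5%.

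Beside main counts of 7, 0, 5, 9, 0 and 10 Hox genes, DESeq2 called 11 in UA+DSS relative to Con and 9 in DSS+UA relative to Con, and the fit of the 2 groups called 8 in DSS+UA relative to Con. A minimum of 10 counts in every library left 14 Hox genes and gave 4 calls in UA+DSS relative to DSS and 5 in DSS+UA relative to UA+DSS. Of all genes DESeq2 called 1.16% and 14.0% there, the fit of the 2 groups 12.3%, and the fit with this minimum 22.2% and 20.2%. Without DSS 2, DSS 3 and DSS+UA 3 there was 1 call each in DSS relative to Con, DSS+UA relative to Con and UA+DSS relative to DSS.

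Beside main counts of 11, 0, 14, 9, 10 and 12 regulator genes, no filter gave 5 in DSS relative to Con, 5 in UA+DSS relative to DSS and 6 in DSS+UA relative to UA+DSS. The fit of the 2 groups gave 5 in DSS relative to Con, 7 in DSS+UA relative to Con, 3 in DSS+UA relative to DSS and 22 in DSS+UA relative to UA+DSS. DESeq2 gave 1 in UA+DSS relative to Con and 20 in DSS+UA relative to UA+DSS. Of all genes, in the order given, no filter called 11.6%, 7.3% and 6.69%. The fit of the 2 groups called 12.6%, 12.3%, 2.62% and 26.1%, and DESeq2 1.16% and 12.9%. Without DSS 2, DSS 3 and DSS+UA 3 there were 3 in DSS relative to Con, 4 in DSS+UA relative to Con, 1 in UA+DSS relative to DSS, 0 in DSS+UA relative to DSS and 3 in DSS+UA relative to UA+DSS. The cause of these shifts was not tested, other than fewer libraries or genes where these were left out.

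No pairing of the libraries by replicate number was seen. Of 18 correlations of same-numbered libraries 5 were over 0.1 (-0.216 to 0.187), and 5 of 12 libraries correlated best with their own number. Whether same-numbered mice shared a cage or litter is not stated. With the replicate number as a block the Hox genes called were 5, 0, 5, 7, 0 and 10 and the regulator genes 13, 0, 14, 9, 4 and 15. The shares of all genes called were 24.8%, 0.00566%, 16.5%, 17.8%, 3.13% and 17.0%.

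With library size alone as scaling factor, the share of calls over all genes that were higher moved from 50.5% to 39.9% in DSS+UA relative to Con and from 33.7% to 12.2% in DSS+UA relative to DSS. Over all alternatives the share of all genes called was 5.23% to 28.5% in DSS relative to Con and 0.914% to 22.7% in UA+DSS relative to DSS.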
